A study of Mus musculus with 6 samples.

Results

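This account covers 10 chemokine genes of the inflamed mouse pancreas, chosen by symbol as ligands known from pancreatic inflammation. They are Cxcl1, Cxcl2, Cxcl5, Cxcl12, Cxcl16, Ccl2, Ccl3, Ccl4, Ccl7 and Ccl20, and they are 10 of the 36333 rows of the count table. The libraries came from the pancreas of WT (wild-type) mice, 3 after cerulein and 3 after saline, both given by intraperitoneal injection. Cerulein, a cholecystokinin analogue that overdrives acinar cells and is used to model acute pancreatitis, was injected 10 times, in 200 µl at 200 µg/kg/h. Tissue was collected as soon as the injections ended. The sources used here give no strain, sex or age, and do not state that each library came from its own animal. The p-values therefore set the group difference against the spread between these libraries, which may not be the spread between mice. Each held 5335117 to 7610775 reads in genes. Saline replicate 1 stands apart by the most neutrophil marker RNA of all 6, and by the least acinar and islet marker RNA of its group.

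Chemokines are small secreted proteins that bind G protein-coupled receptors on leukocytes and guide them along a gradient held on endothelium and matrix. Members of the CXC subfamily that carry a Glu-Leu-Arg motif, such as Cxcl1, Cxcl2 and Cxcl5, act on Cxcr2 and draw neutrophils. Ccl2 and Ccl7 draw monocytes through Ccr2, while Ccl3 and Ccl4 draw monocytes, macrophages and T cells, Ccl3 in part through Ccr1. Ccl20 is the ligand of Ccr6, Cxcl12 is a constitutive stromal ligand of Cxcr4 and of the scavenging receptor Ackr3, and Cxcl16 is made as a transmembrane protein whose shed form attracts Cxcr6-bearing lymphocytes. In pancreatitis, acinar cells themselves are known to make several of these ligands under NF-kB, the transcription factor that induces many chemokine genes.

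All 10 rows held at least 1 read, and 9 passed the count filter. Of the 9 tested, 8 were higher after cerulein, none was lower and Cxcl12 did not pass the threshold, in edgeR's quasi-likelihood test at an adjusted p under 0.05. Over all 12441 genes tested, 28.7% were called higher and 27.1% lower. The median log2 fold change was 3.29 for the 9 chemokines and -0.00 for all genes tested, whose 95th percentile was 2.25. In those 8 genes every cerulein library stood above every saline library, which held for 32.4% of all genes tested. Since the genes were picked with earlier results of these data known, no p is given for them as a group.

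The 8 risers lie on chromosomes 5 and 11 of mm10. Cxcl5 (chr5:90759360-90761624), Cxcl1 (chr5:90891241-90893115) and Cxcl2 (chr5:90903871-90905938) lie in the same CXC cluster on the plus strand. Ccl2 (chr11:82035571-82037453) and Ccl7 (chr11:82045712-82047525) adjoin each other, as do Ccl3 (chr11:83647844-83649355, minus strand) and Ccl4 (chr11:83662584-83664683, plus strand). Cxcl16 (chr11:70453983-70459984) lies apart from them on the minus strand. Cxcl12 (chr6:117168535-117181367) and Ccl20 (chr1:83116766-83119167) stand alone. These are GENCODE positions on GRCm38, the assembly behind mm10, and each covers the whole gene, exons and introns.

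RefSeq upstream sequence on GRCm38.p6 was at hand for 5 of the 10 genes, Cxcl1, Cxcl2, Cxcl12, Ccl3 and Ccl20. The 250 bases before the RefSeq start are printed for Cxcl1 and Cxcl2, a pair of Cxcr2 ligands that rose together, for Ccl3, which also rose, and for Cxcl12, which was not called. Capitals mark matches to the NF-kB consensus motif on either strand.
Cxcl1, plus strand, chr5:90890995-90891244: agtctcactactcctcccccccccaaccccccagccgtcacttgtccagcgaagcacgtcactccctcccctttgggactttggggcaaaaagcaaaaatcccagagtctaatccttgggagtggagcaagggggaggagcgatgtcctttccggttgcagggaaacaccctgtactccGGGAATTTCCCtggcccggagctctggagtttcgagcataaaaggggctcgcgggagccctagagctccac
Cxcl2, plus strand, chr5:90903649-90903898: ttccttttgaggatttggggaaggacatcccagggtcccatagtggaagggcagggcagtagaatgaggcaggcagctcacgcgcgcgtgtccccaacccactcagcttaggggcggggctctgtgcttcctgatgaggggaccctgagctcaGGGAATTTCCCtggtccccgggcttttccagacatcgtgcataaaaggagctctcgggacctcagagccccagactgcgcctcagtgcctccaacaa
Ccl3, minus strand, chr11:83649379-83649628: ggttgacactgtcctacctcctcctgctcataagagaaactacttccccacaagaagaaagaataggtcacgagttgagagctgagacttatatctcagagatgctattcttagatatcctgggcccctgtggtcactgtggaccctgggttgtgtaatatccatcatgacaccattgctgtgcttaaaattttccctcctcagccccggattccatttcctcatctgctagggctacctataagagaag
Cxcl12, plus strand, chr6:117168285-117168534: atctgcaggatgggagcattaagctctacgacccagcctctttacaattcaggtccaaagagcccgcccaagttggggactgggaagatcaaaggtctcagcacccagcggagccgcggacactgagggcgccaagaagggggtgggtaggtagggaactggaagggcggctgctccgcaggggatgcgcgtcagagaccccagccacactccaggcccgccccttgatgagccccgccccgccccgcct

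The same matched bases, GGGAATTTCC, stood at -71 to -62 before the start of Cxcl1 and at -97 to -88 before that of Cxcl2, counted back from -1 at the base before the start. Since that site is nearly a palindrome, a second match, GGGAAATTCC, overlaps it on the other strand, at -70 to -61 in Cxcl1 and -96 to -87 in Cxcl2. The longest identical run of those 2 upstream sequences was 14 bases, GGGAATTTCCCTGG, and it begins with this match. Ccl20, not printed, held 1 match, GGGGTTTTCC, on the other strand at -80 to -71, and the windows of Ccl3 and Cxcl12 held none. The motif occurred in 7.25% of 32851 upstream windows of the same length. The AP-1 motif TGANTCA, searched on both strands, was in none of the 5 windows and in 6.75% of all of them. Base composition differed, at 64.4% G and C in Cxcl12, 59.2% in Cxcl1 and 46.8% in Ccl3. A match describes letters only and says nothing of binding.

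**Figure D1:**
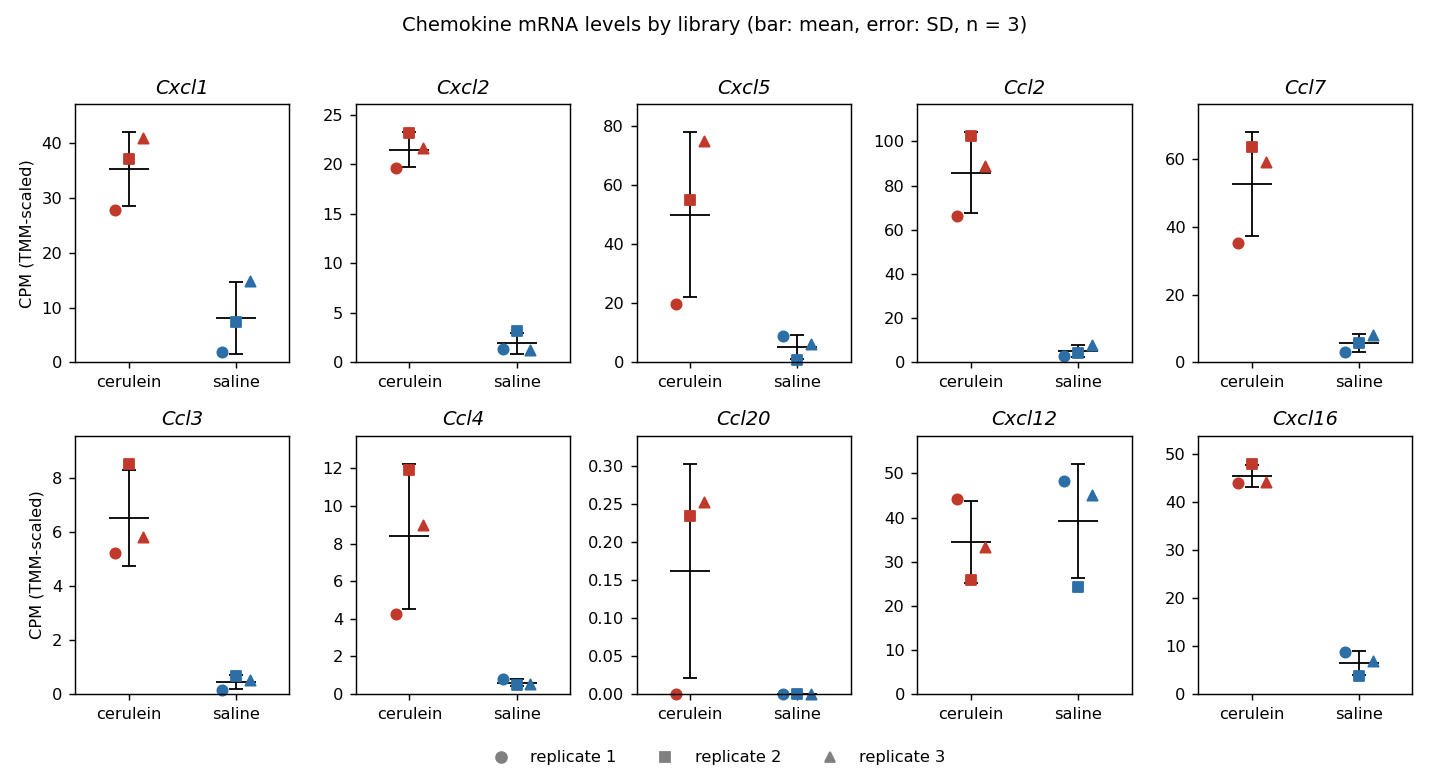
Level of each chemokine in every library, in CPM scaled with TMM factors (y axes differ and start at 0). Points are libraries and the bar with its error is the mean ± SD of 3; the groups are apart in all panels but Cxcl12 and Ccl20, which reached 0.253 CPM at most.

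Among the neutrophil-drawing ligands, Cxcl2 had the smallest standard error. Its level, in CPM (counts scaled to a common library size with edgeR's TMM factors), was 19.6, 23.2 and 21.6 in cerulein replicates 1, 2 and 3, and 1.35, 3.15 and 1.29 in saline replicates 1, 2 and 3. The cerulein libraries lay close together, far above all saline ones. The fold was 11.4, which is 3.51 ± 0.30 in log2 (SE, adjusted p = 6.68e-07, edgeR), and it stayed called under all 13 alternatives tried.

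Cxcl1, the other classical Cxcr2 ligand, had a smaller fitted change and a larger standard error. Its level was 27.8, 37.2 and 40.9 CPM after cerulein, and 1.90, 7.43 and 14.9 CPM after saline. The groups did not overlap, but saline replicate 3 stood far above saline replicate 1. The log2 change was 2.24 ± 0.59 (SE, adjusted p = 0.0172, edgeR), a fold of 4.74. It was 1.64 (adjusted p = 5.51e-05) without saline replicate 1 and 3.02 (adjusted p = 0.00101) without saline replicate 3, and the call was lost without saline replicate 2 (2.27, adjusted p = 0.0821), without cerulein replicate 2 (2.20, adjusted p = 0.0573) and without a count filter (2.32, adjusted p = 0.0720).

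Cxcl5, a Cxcr2 ligand known from epithelial cells, was the most uneven of the 8. It stood at 19.9, 55.0 and 75.01 CPM in the cerulein libraries, against 8.80, 0.901 and 6.17 CPM in the saline libraries. Cerulein replicate 1 was low within its group, saline replicate 2 was nearly empty at 4 reads, and the groups still did not overlap. The log2 change was 3.15 ± 0.74 (SE, adjusted p = 0.0125, edgeR), a fold of 8.88. Its call was lost without saline replicate 1 (3.83, adjusted p = 0.0649), with the replicate number as a block (3.005, adjusted p = 0.120) and without a count filter (3.23, adjusted p = 0.0612).

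Saline replicate 1, which held the least Cxcl1 and the most Cxcl5 of its group, also held the most neutrophil marker RNA. The 11 neutrophil markers summed to 53.4, 87.6 and 114 CPM in cerulein replicates 1, 2 and 3, and to 208, 20.05 and 43.2 CPM in saline replicates 1, 2 and 3. None of the 11 was at 0 in all libraries, 7 were tested, 2 rose and none was called lower, with a median log2 fold change of -0.16. The share that rose was near the 28.7% of all tested genes called higher. Ngp, a granule protein gene named after its values were seen, had 4, 1 and 14 reads after cerulein and 111, 4 and 16 reads after saline, at -3.18 ± 1.13 (SE, adjusted p = 0.0514, edgeR), and was called lower in 7 of the 13 alternatives. The receptor Cxcr2, not on that list, followed the same order, with 45, 84 and 127 reads after cerulein and 130, 6 and 12 reads after saline. Its log2 fold change was 0.37 ± 0.86 (SE, adjusted p = 0.749, edgeR) and became 2.21 (adjusted p = 0.00666) without saline replicate 1. It was below 0 without saline replicate 2 and without cerulein replicate 3. The part of these markers in the Cxcl1 and Cxcl5 values was not tested. In bulk tissue, a change in the number of cells and a change in RNA per cell cannot be told apart.

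Of the 9 tested members, the monocyte ligand Ccl2 had the largest fitted change. Ccl2, the main ligand of Ccr2, had 66.0, 102 and 88.8 CPM in the cerulein libraries, against 3.11, 4.28 and 7.97 CPM in the saline libraries. The lowest cerulein library was far above the highest saline one. The fold was 17.7 (log2 4.14 ± 0.30, SE, adjusted p = 6.80e-07, edgeR), and the log2 change lay between 3.79 and 4.71 over the 13 alternatives, in all of which it was called.

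Ccl7, the neighbour of Ccl2 and a second Ccr2 ligand, had 35.3, 63.6 and 59.2 CPM after cerulein, and 2.98, 5.86 and 8.23 CPM after saline. The order of the libraries was the same for both genes within each group. The fold was 9.80 (log2 3.29 ± 0.35, SE, adjusted p = 2.84e-05, edgeR).

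The balance between Ccl2 and Ccl7, which needs no scaling between libraries, leaned further to Ccl2 in every cerulein library, though 3 against 3 cannot reach the threshold. The log2 ratio of their counts was 0.90, 0.69 and 0.58 in the cerulein libraries, against 0.06, -0.44 and -0.05 in the saline libraries. The groups did not overlap and differed by 0.87, with p = 0.1 in a two-sided exact permutation test, the smallest that 3 against 3 can give, and 0.3 adjusted over the 3 pairs compared. For Cxcl1 to Cxcl2 the log2 ratio averaged 0.70 ± 0.21 after cerulein and 1.69 ± 1.53 after saline (SD, n = 3 each), and the groups overlapped (exact permutation p = 0.4, adjusted 0.6). For Ccl3 to Ccl4 it averaged -0.27 ± 0.49 after cerulein and -0.54 ± 1.38 after saline (SD, n = 3 each), again with overlap (exact permutation p = 0.9, adjusted 0.9), and the sign of this difference changed without saline replicate 1 or cerulein replicate 1.

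The genes of the macrophage inflammatory proteins, Ccl3 and Ccl4, had low read counts and rose from a few reads. Ccl3 had 44, 73 and 46 reads in the cerulein libraries, against 1, 3 and 2 reads in the saline libraries. That is 5.21, 8.54 and 5.81 CPM after cerulein, and 0.135, 0.676 and 0.514 CPM after saline. The log2 change was 4.001 ± 0.51 (SE, adjusted p = 2.47e-05, edgeR), and it was 3.37 without saline replicate 1. Ccl4, a close relative of Ccl3, had 36, 102 and 71 reads after cerulein and 6, 2 and 2 reads after saline. The log2 change was 3.70 ± 0.50 (SE, adjusted p = 4.08e-05, edgeR), and no alternative ended the call of either gene. In RefSeq, though not in GENCODE, 755 of the 1536 bases in the span of Ccl3 overlap that of Ccl4 on the opposite strand. Whether counting used strand is not given in the sources used here, so part of the reads of both genes may have been lost or shared.

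Cxcl16 rose with little spread among the cerulein libraries. It had 44.0, 48.1 and 44.3 CPM after cerulein, and 8.80, 3.83 and 6.94 CPM after saline. The fold was 6.76 (log2 2.76 ± 0.24, SE, adjusted p = 7.48e-07, edgeR). Of its RefSeq span, 552 bases overlap Zmynd15 on the plus strand, and 503 of the 2513 windows of 50 bases in its coding transcripts occur in a Zmynd15 transcript. Zmynd15 itself had 45, 37 and 29 reads after cerulein and 15, 3 and 6 reads after saline, well under the 351 to 411 and 17 to 65 reads of Cxcl16. The proteases that shed Cxcl16, Adam10 and Adam17, named after their values were seen, did not pass the threshold, with log2 fold changes of -0.05 ± 0.16 and 0.27 ± 0.18 (SE, adjusted p = 0.822 and 0.211, edgeR). Its receptor Cxcr6 lies inside the span of another gene and was at 0 in all libraries, which was taken as no measurement.

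Cxcl12 was the tested member that was not called. Its level was 44.1, 25.7 and 33.3 CPM in the cerulein libraries, and 48.3, 24.3 and 45.0 CPM in the saline libraries. The groups overlapped throughout, and replicate 2 was the lowest in both. The log2 change was -0.20 ± 0.27 (SE, adjusted p = 0.563, edgeR), with a 95% interval from -0.79 to 0.40, so changes within those bounds could not be told from none. With library size alone as scaling, the sign turned, at 0.35 (adjusted p = 0.439). That scaling shifts the median over all tested genes by 0.563 in log2, and upper-quartile factors shift it by -0.197. Under both, the other 8 genes stayed called higher. Stellate cell and fibroblast markers, among the known sources of Cxcl12, summed to 351 to 474 CPM in the cerulein libraries and 389 to 448 CPM in the saline libraries. The list's members moved both ways: Dcn, a matrix proteoglycan gene, averaged 104 ± 14.98 CPM after cerulein and 212 ± 24.2 CPM after saline (SD, n = 3 each), while the collagen genes Col1a1 and Col3a1 rose by 1.08 ± 0.24 and 0.71 ± 0.16 on the log2 scale. The log2 change of Dcn was -1.03 ± 0.17 (SE, adjusted p = 2.25e-04, edgeR), not called with library size alone (-0.46, adjusted p = 0.122).

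Ccl20 was close to undetected. It had 0, 2 and 2 reads in cerulein replicates 1, 2 and 3, and none in the saline libraries. No library reached the floor of 3 reads, so no fold is given and a difference was not detectable at this depth. Without a count filter its fitted log2 change had an adjusted p of 0.236. Its receptor Ccr6 was also below the filter, with 16, 3 and 5 reads after cerulein and 17, 0 and 2 after saline.

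**Figure D2:**
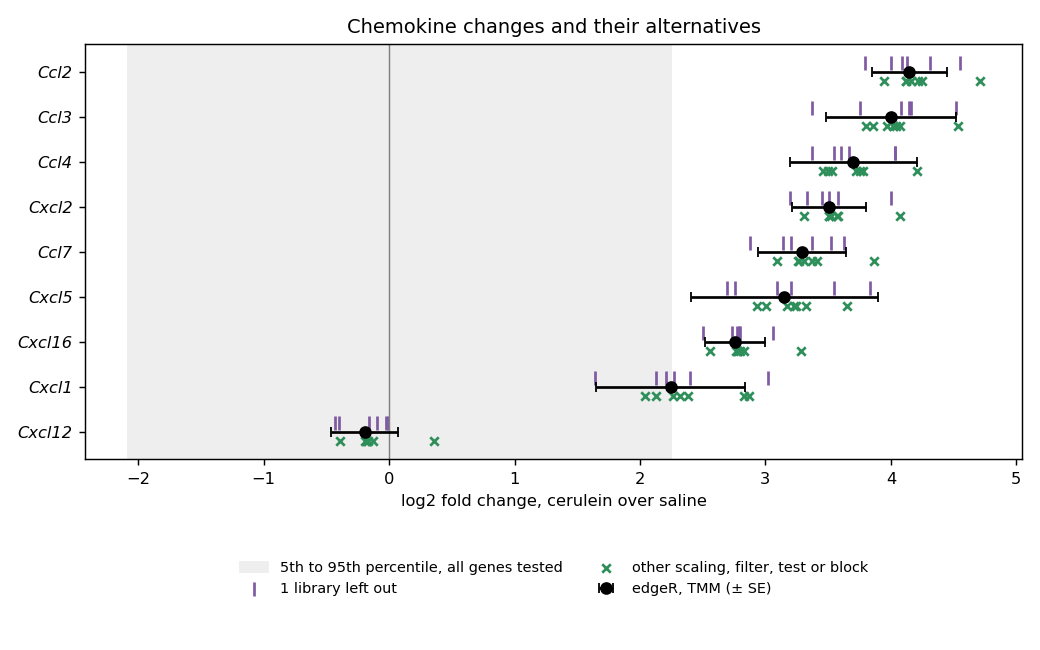
Log2 fold change of the 9 tested chemokines, cerulein over saline, with SE (black), each library left out in turn (purple) and other settings (green); the grey band spans the 5th to the 95th percentile of all genes tested. Cxcl12 lies near 0, Cxcl1 at 2.24 lies at the band's edge, and the other 7 lie above it.

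Levels of different genes were compared per kilobase of the longest protein-coding transcript in GENCODE. After cerulein, Ccl2 was the highest at 105 ± 22.6 CPM per kilobase, followed by Ccl7 at 65.8 ± 19.1, Cxcl1 at 37.1 ± 7.09 and Cxcl5 at 31.7 ± 17.7 (SD, n = 3 each). Cxcl16 at 16.9 ± 0.839, Ccl4 at 12.7 ± 5.86, Cxcl2 at 11.5 ± 0.949, Ccl3 at 8.51 ± 2.32 and Cxcl12 at 6.11 ± 1.64 CPM per kilobase came next, with Ccl20 last at 0.114 (SD, n = 3 each). Neighbours from Cxcl1 down to Cxcl12 overlapped in their ranges, whereas Ccl2 and Ccl7, and Ccl7 and Cxcl1, did not. The places of Ccl3 and Ccl4 are uncertain, since part of their reads may have been lost or shared where their RefSeq spans overlap.

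After saline the order was different. Cxcl1 at 8.48 ± 6.85, Ccl7 at 7.10 ± 3.28, Cxcl12 at 6.97 ± 2.31 and Ccl2 at 6.30 ± 3.12 CPM per kilobase led and overlapped one another (SD, n = 3 each). Cxcl12 thus ranked 9 among the 10 in cerulein and 3 in saline. With the union of all annotated exons as length, Cxcl12 ranked 9 in cerulein and 2 in saline, Cxcl5 passed Cxcl1 after cerulein, and Ccl7 led after saline.

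**Figure D3:**
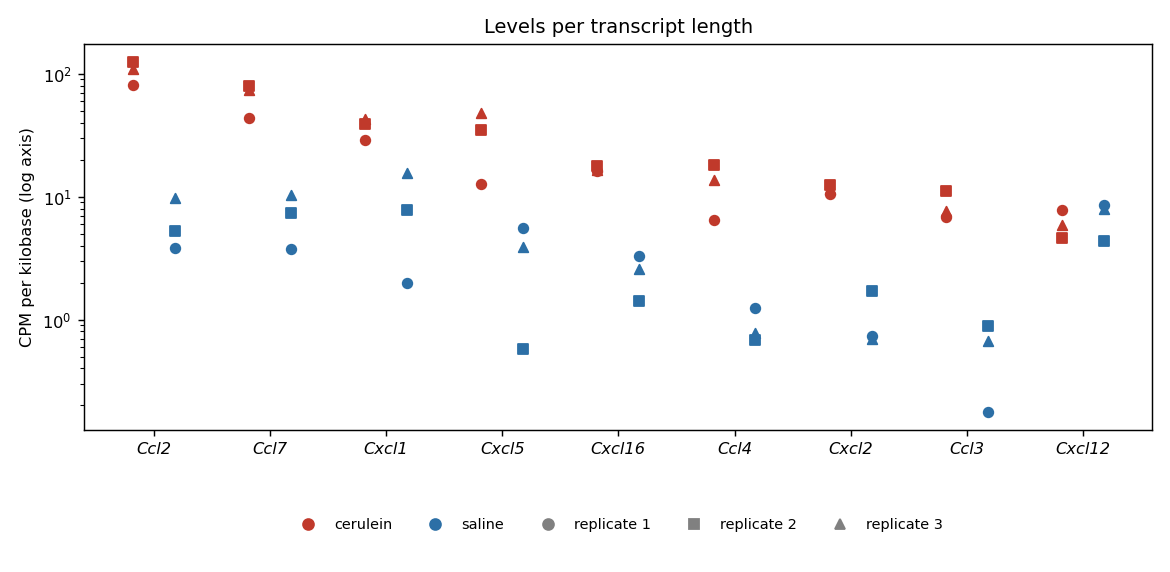
Level per kilobase of the longest coding transcript for 9 chemokines in every library, on a log axis, with cerulein left of saline and genes ordered by their cerulein mean. Ccl20 is left out, as it had no read in 4 of the 6 libraries; Cxcl12 alone has overlapping groups.

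Of 28 other chemokine ligand genes found in the table, 13 were tested. Of these, 8 rose and none fell, with a median log2 fold change of 1.21. The share called higher among all genes tested was 28.7%. A further 7 of the 28 had too few reads, and 8 were at 0 in all libraries, 4 of them inside another gene. Cxcl3, another Cxcr2 ligand beside Cxcl1 and Cxcl2, had 27, 70 and 53 reads after cerulein and 1, 1 and 2 after saline, or 4.45 ± 0.61 in log2 (SE, adjusted p = 4.43e-05, edgeR). Of the 50-base windows of Cxcl2, 3.28% also occur in Cxcl3. The eosinophil attractant Ccl11 rose by 1.68 ± 0.23, Ccl9, a mouse Ccr1 ligand, by 1.79 ± 0.28, the Ccr4 ligand Ccl22 by 1.67 ± 0.33 and the epithelial chemokine Cxcl14 by 1.21 ± 0.18 on the log2 scale (SE, adjusted p = 3.79e-05, 3.88e-04, 7.43e-04 and 8.35e-05, edgeR). The B cell attractant Cxcl13 and the Ccr7 ligand Ccl21a were among the 5 not called, at -0.19 ± 0.59 and 0.48 ± 0.59, and are named after their values were seen. Cxcl13 had no stable sign, being at 0.65 without saline replicate 1, 0.28 with library size alone and 0.10 without cerulein replicate 2.

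Among 22 chemokine receptor genes, 10 were tested, 5 rose and none fell, with a median log2 fold change of 0.62. With a library left out, 4 to 6 were called higher. The share called higher among all genes tested was 28.7%. Ccr2 and Ccr1, receptors of CC ligands that rose, were higher too. Ccr2 had 37.1 ± 2.92 CPM after cerulein and 7.03 ± 4.05 CPM after saline (SD, n = 3 each), which is 2.33 ± 0.32 in log2 (SE, adjusted p = 1.19e-04, edgeR). Ccr1 had 199, 226 and 203 reads after cerulein and 77, 13 and 10 reads after saline. It rose by 2.11 ± 0.42 on the log2 scale (SE, adjusted p = 0.00241, edgeR), and by 3.15 without saline replicate 1, the highest of the saline libraries.

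The Cxcl12 receptors had fitted changes near 0.5 in log2, of which 1 was called. Cxcr4, the signalling receptor, had 115, 60 and 51 reads after cerulein and 70, 14 and 21 after saline, at 0.53 ± 0.40 (SE, adjusted p = 0.288, edgeR), or 1.07 (adjusted p = 0.0344) without saline replicate 1. Ackr3, which takes up Cxcl12 without G protein signalling, was called higher at 0.55 ± 0.20 (SE, adjusted p = 0.0304, edgeR). That call was lost in 6 of the 13 alternatives, among them DESeq2 (adjusted p = 0.0883) and upper-quartile factors (adjusted p = 0.140). Of the other receptor genes on the list, Ackr1, known from venules and red blood cells, and Ccrl2 were also called higher. They rose by 1.51 ± 0.41 and 1.17 ± 0.24 on the log2 scale (SE, adjusted p = 0.00761 and 0.00111, edgeR). Ackr1, whose span overlaps Cadm3, was at 2.21 without saline replicate 1.

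**Figure D4:**
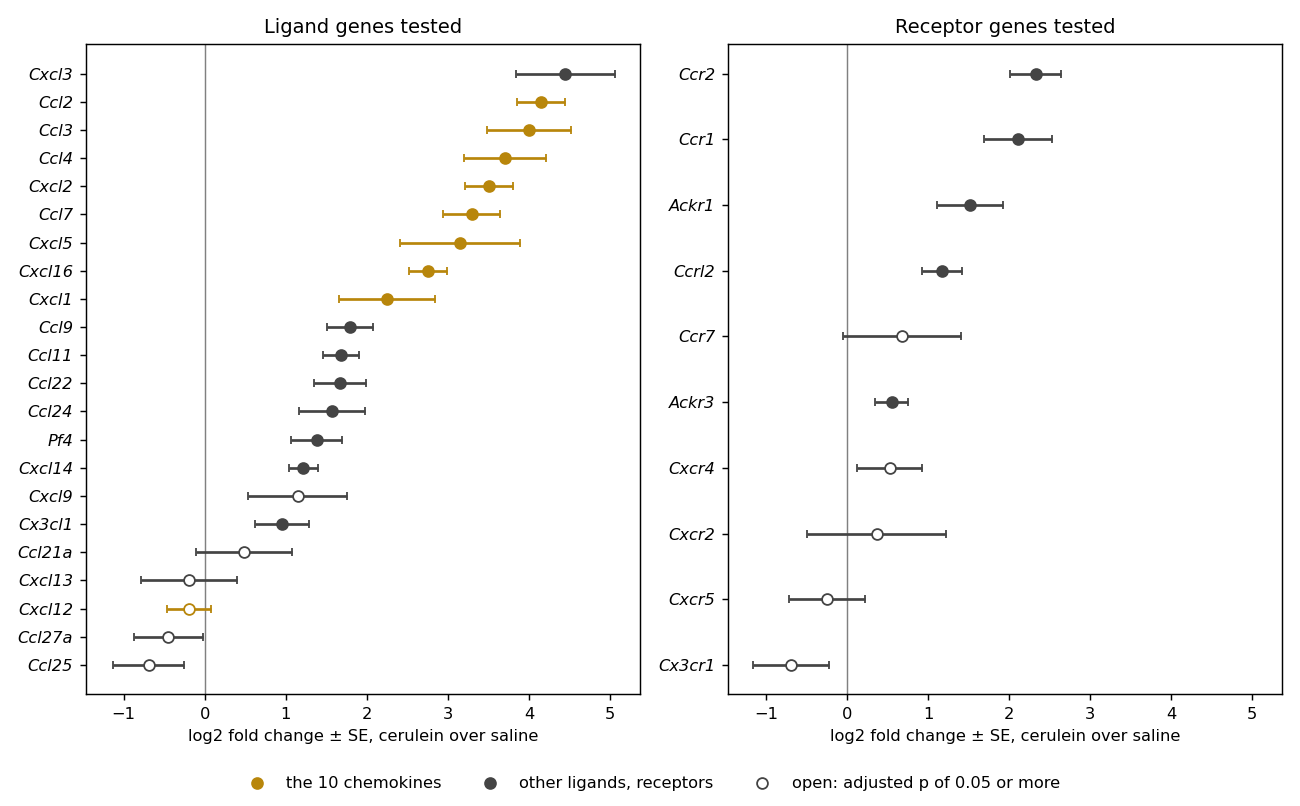
Log2 fold change ± SE, cerulein over saline, of the 22 chemokine ligand genes (left) and 10 receptor genes (right) that were tested. Filled points passed the threshold; the 8 chemokines described above, with Cxcl3, take the top 9 places on the left, and Ccr2 and Ccr1 the top 2 on the right.

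In the list of chemokine-inducing signals and NF-kB genes, 16 of 20 tested were higher and none lower, with a median log2 fold change of 1.48. Among all genes tested, 28.7% were called higher. The 16 include inhibitors of NF-kB, named after their values were seen. Among them, Nfkbia rose by 1.04 ± 0.14, Nfkbie by 2.66 ± 0.29, Tnfaip3 by 1.73 ± 0.21 and Tnip1 by 1.40 ± 0.20 on the log2 scale. A further inhibitor gene, Nfkbib, was at 0.16 ± 0.18 and was called only with library size alone (0.74). Il1b, which encodes interleukin 1 beta, rose to 37.2 ± 2.73 CPM after cerulein, against 1.99 ± 0.922 CPM after saline (SD, n = 3 each; log2 4.33 ± 0.28, adjusted p = 7.46e-08, edgeR). An antisense gene overlaps Il1b, so some of its reads may belong there. Rela and Relb, NF-kB subunits, rose by 3.16 ± 0.22 and 2.59 ± 0.19, Nfkb2, which overlaps Psd, by 1.72 ± 0.16 and the TNF receptor gene Tnfrsf1a by 1.55 ± 0.16 on the log2 scale. Tnf itself, named after its values were seen, had 47, 41 and 34 reads after cerulein and 4, 2 and 4 after saline. Il6 lies inside another gene and was at 0 in all libraries.

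Regulators that shorten the life of chemokine mRNAs rose as well, 4 of 5 tested, with none lower. Among all genes tested, 28.7% were called higher. Zfp36, encoding tristetraprolin, which binds AU-rich elements, rose by 1.63 ± 0.17, Zc3h12a, encoding the RNase regnase-1, by 1.21 ± 0.23, Rc3h1 by 0.88 ± 0.15 and Zfp36l2 by 0.67 ± 0.18 on the log2 scale. Zfp36l1, named after its values were seen, was at 0.39 ± 0.16 (adjusted p = 0.0527, edgeR) and was called in 6 of the 13 alternatives.

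In the list of shedding, cleavage and presentation genes, 3 of 9 tested rose and 2 fell, shares near the 28.7% higher and 27.1% lower among all genes tested. Heparan sulfate is the sugar that holds chemokines on cell surfaces, and syndecans carry it. The syndecan genes Sdc1 and Sdc4 rose by 2.88 ± 0.18 and 1.35 ± 0.17 and Ndst1, a heparan sulfate sulfotransferase, by 1.13 ± 0.16 on the log2 scale. Mmp2, encoding a gelatinase, fell by 1.03 on the log2 scale (SE 0.22, adjusted p = 0.00142, edgeR) and was not called with library size alone. Dpp4, encoding a peptidase that trims chemokines, was at -0.88 ± 0.34 (adjusted p = 0.0443, edgeR), and 9 of 13 alternatives ended its call.

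For leukocyte capture on endothelium, 3 of 9 genes rose and none fell, a share near the 28.7% of all tested genes called higher. E-selectin (Sele) had 33, 63 and 70 reads after cerulein and 5, 1 and 4 after saline, or 3.36 ± 0.51 in log2 (SE, adjusted p = 9.39e-05, edgeR). Icam1 rose by 2.27 ± 0.43 and Vcam1 by 0.97 ± 0.33 on the log2 scale (SE, adjusted p = 0.00330 and 0.0289, edgeR), the call of Vcam1 being lost with upper-quartile factors and without cerulein replicate 1 or 3. Of 7 genes that relay chemokine receptor signals, only Gnai2 was called, at 0.71 ± 0.17. Without saline replicate 1, 5 capture genes and 2 relay genes were called higher.

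**Figure D5:**
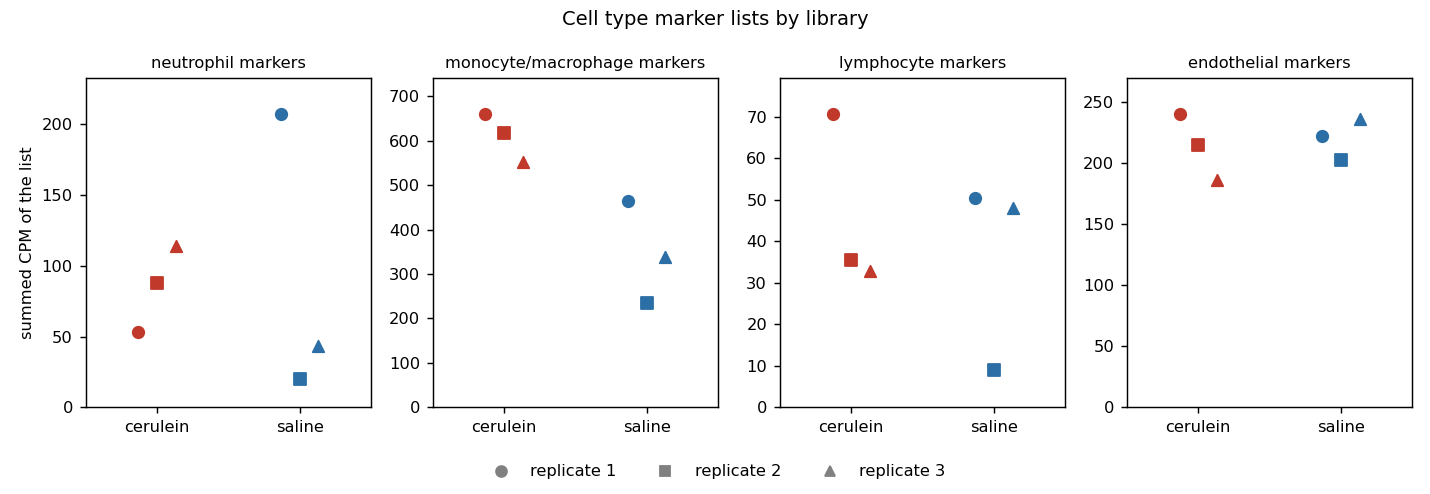
Summed CPM of the markers of neutrophils (11 genes), monocytes and macrophages (12), lymphocytes (10) and endothelium (8) in every library, with axes from 0. Only the monocyte and macrophage sums are apart, at 553 to 661 CPM after cerulein and 235 to 465 CPM after saline. Lyz2 and Cd14 make up much of these sums, with means of 254 and 149 CPM after cerulein and 130 and 20.6 CPM after saline. Saline replicate 1 is the highest of all in the neutrophil panel.

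The marker lists describe what moved beside the chemokines. Of 12 monocyte and macrophage markers, none at 0, 5 rose and 1 fell (0 to 3 lower with a library left out). The list's median log2 fold change was 0.08, while 28.7% of all genes tested were called higher and 27.1% lower. Cd14 was at 2.81 ± 0.29 and the Fc receptor gene Fcgr1 at 2.14 ± 0.33 on the log2 scale (2.79 for Fcgr1 without saline replicate 1). Cd163, Adgre1, Mrc1 and Csf1r, named after their values were seen, were at -0.71, -0.87, -0.28 and -0.25, and of these only Cd163 was called. Its call was lost with library size alone (-0.19), and Adgre1 was called lower with upper-quartile factors (-1.07). The complement genes of macrophages C1qa, C1qb and C1qc, also named after their values were seen, lay between 0.05 and 0.09 and were not called. Among 7 neutrophil markers tested, Trem1 rose by 2.10 ± 0.31 and Clec4d by 1.28 ± 0.42, whereas S100a9, Retnlg and S100a8, named after their values were seen, were at -1.19, -0.43 and -0.16 and not called. Without saline replicate 1 these stood at 0.57, 1.97 and 1.36, also not called. Clec4d was at 2.27 without saline replicate 1 and lost its call without saline replicate 3 (0.95, adjusted p = 0.0566) or cerulein replicate 3 (1.24, adjusted p = 0.0628). None of 7 lymphocyte markers tested was called. Endothelial markers fell for 2 of 8 and rose for none, with 0 to 3 lower when a library was left out. The share that fell was near the 27.1% of all tested genes called lower. Acinar markers fell for 7 of 8, their sum being 113525 to 144347 CPM in the cerulein libraries and 177230 to 301906 CPM in the saline libraries, and duct markers rose for 4 of 5, with sums of 732 to 923 CPM after cerulein and 52.7 to 71.0 CPM after saline. The part of these cell types in the chemokine changes was not tested.

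Likeness of pattern over the 6 libraries was measured as Pearson's r of log2 CPM against 12056 other genes. Nearest to Ccl2, the chemokine with the highest CPM after cerulein, were Grik3, Cdk9, Msmo1, Gm6377 and Capza2, each at r of 0.998 or 0.999. Nearest to Cxcl12 were Olfml2b, Rnf150, Fnbp1, Arhgef1 and Marco, with r between 0.982 and 0.991. Each set was picked as the highest among all those genes over only 6 libraries, so a shared pattern was not tested. All points share the same 6 libraries and their 2 groups, so a high r with Ccl2 largely reflects a gap between the groups.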

How the data were processed

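RNA-seq libraries from pancreas were made with the TruSeq Stranded mRNA kit after TRIzol extraction, per the labels' protocols. Read counts per gene, unnormalized, were deposited by the authors for 6 libraries, with totals of 5335117 to 7610775. Trimmomatic, STAR, HTSeq and the mm10 build are listed in the submitters' processing notes, and counting settings were not given. Counts were tested with edgeR 4.0.16 (R 4.3.3), with filterByExpr (minimum count 10, minimum total 15), TMM factors, robust quasi-likelihood F tests and Benjamini-Hochberg adjustment over 12441 genes, called under 0.05. Standard errors were derived from F, and intervals from SE and the test's degrees of freedom. The script was tested on simulated data. DESeq2 1.42.0, limma-voom (limma 3.58.1), other scalings, filters, a replicate block and each library left out were alternatives. Whether same-numbered libraries deviated together could not be settled from 3 pairs. Ratios used a pseudocount of 0.5. Members and lists were chosen with earlier results of these data known. All 10 members are named, with up to 5 called genes of smallest p per pathway list, up to 2 per marker list (given only for leukocytes here) and the members' receptors, of which 1 is not reported here.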

Additional observations from a re-analysis of the deposited data

How the results depend on the processing

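Cxcl2, Cxcl16, Ccl2, Ccl3, Ccl4 and Ccl7 kept their direction and their call under all 13 alternatives, and no alternative called a member lower. Between 7 and 8 members were called higher with 1 library left out. Leave-one-out log2 changes were 1.64 to 3.02 for Cxcl1, 3.19 to 4.003 for Cxcl2, 2.69 to 3.83 for Cxcl5, 3.79 to 4.55 for Ccl2, 2.88 to 3.62 for Ccl7, 3.37 to 4.52 for Ccl3, 3.37 to 4.04 for Ccl4, 2.51 to 3.06 for Cxcl16 and -0.44 to -0.01 for Cxcl12. Without a count filter Cxcl1 (2.32) and Cxcl5 (3.23) lost their calls, leaving 6 members, and with the replicate block Cxcl5 did (3.005, adjusted p = 0.120); the cause was not tested. With library size alone Cxcl12 turned to 0.35, 1449 genes were called lower, 5 shedding, cleavage and presentation genes were higher and 0 lower, and 2 receptor signalling genes were higher. The shedding, cleavage and presentation list had 1 lower gene with DESeq2, without a count filter and with the replicate block. It had 1 to 2 with a library left out. Leukocyte capture genes called higher numbered 5 with limma-voom and 2 to 5 with a library left out, receptor signalling genes 1 to 2, and chemokine receptors called lower 0 to 1. The Ccl3 to Ccl4 difference ranged from -0.51 to 0.79 with a library left out. Whether replicate numbers pair the libraries was not settled. Correlations were 0.190, 0.216 and -0.150 for numbers 1, 2 and 3, against -0.293 to 0.0884 between libraries of different numbers. The block kept 7 members called higher. Ccl20 is limited by depth, at 2 reads or fewer a library.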
